A study of Caenorhabditis elegans with 8 samples.

Results

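The genes described here are the 250 of Caenorhabditis elegans with the highest density of intron counts relative to coding counts in mock-treated young adult worms. For each gene the counts of the 4 mock libraries were summed, genes with at least 100 intron counts and at least 100 coding counts were kept, and the ratio of intron counts per base of intron to coding counts per base of coding sequence was ranked. Of 20182 genes in the tables, 2180 met both minimums, and 250 were taken. The genes were thus chosen by their mock intron and coding counts, and their ratios in mock are a description and not a finding.

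The study, whose title names the search for targets of the rege-1 gene product, sequenced total RNA of whole young adults. The 4 groups, with 2 libraries each, were the glp-1 (e2141) mutant fed double-stranded RNA against rege-1 (rege-1 RNAi), the glp-1 mutant fed a mock control, the laboratory wild type N2 fed rege-1 RNAi, and N2 fed the mock control. All animals were fed from the first larval stage, and the glp-1 animals were kept at the restrictive temperature, where loss of this Notch receptor is meant to deplete the germline. No temperature is stated for N2, so strain and temperature cannot be told apart. RNA came from whole animals, so a difference can stand for fewer cells of a type or for less RNA per cell, which cannot be told apart. Nothing in the labels says that the 2 libraries of a group came from separate cultures, and each p therefore measures the spread between these libraries, which may be technical.

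Introns are cut out of the primary transcript and are usually degraded quickly, so intron counts are low for most genes. Some introns carry other genes. In animals many small nucleolar RNAs (snoRNAs), which guide modification and cutting of ribosomal RNA, lie in introns of genes for ribosomal proteins, translation factors and other abundant proteins, and are trimmed from the excised intron. Introns can also span exons of a neighbour on the other strand, or be the remains of an outdated gene model. REGE-1 is known as an endoribonuclease that lowers the mRNA of the transcription factor ETS-4 in C. elegans.

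Among the 250 genes the ratio had a median of 0.329, against 0.0174 in the other 1930 genes that met the minimums. In 37 genes it was above 1, so that the intron was more densely covered than the coding sequence. The 3 genes just inside the limit were apb-3 with 0.147, slc-17.4 with 0.147 and F35A5.1 with 0.147, and the 3 just outside were ccch-1 with 0.146, H04D03.2 with 0.146 and R11F4.1 with 0.145. There was thus no gap at the limit. Together the 250 genes held 58.4% of all intron counts of the mock libraries and 2.53% of their coding counts.

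The RNAi libraries took no part in the choice. There 2118 genes met the same minimums, 231 of the 250 among them, and 221 of the 250 were again among the 250 highest ratios. Over the 231 genes that met the minimums there, the median ratio in the RNAi libraries was 0.354. The ranking was therefore largely the same in libraries it did not use.

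The top of the list was made of genes with an RNA gene or an exon of another coding gene inside an intron. F58G1.7, on chromosome II from 12943849 to 12948258 (minus strand, WBcel235), had the highest ratio, 58.1, and its intron holds the snRNA gene sup-6, 165 bases long and on the same strand. The second was frm-7, a FERM-domain gene on chromosome V from 12302484 to 12306974 (plus strand), with a ratio of 53.5 and the snoRNA genes C51F7.4 and C51F7.3 in an intron. W08G11.3 followed with 25.2 and the snoRNA gene W08G11.6. In lron-14, a leucine-rich repeat gene with a ratio of 19.4, the intron spans 957 bases of exon of the cuticle collagen gene col-122 on the opposite strand.

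Y38F2AR.12 had a ratio of 12.6 and holds the snoRNA gene Y38F2AR.14. The receptor kinase-related gene rol-3 had 10.9 and holds a snoRNA gene and 2 tRNA genes. The potassium channel gene twk-5 had 9.63, with the snoRNA gene B0334.12 on the opposite strand. K10D3.4 had 9.53 and holds a snoRNA gene and exons of hpo-11 on its own strand. C15F1.5 had 9.22 and holds the snRNA gene sup-39, and ZK185.2 had 6.43 with the snoRNA gene ZK185.9 on the opposite strand. Of these 10 genes, 7 thus have a snoRNA gene in an intron.

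Over all 250 genes, 40 (16%) have an annotated snoRNA gene in an intron, against 70 of the other 1930 (3.6%). Among the highest 100 ratios the share was 30.0%, and among the highest 500 it was 9.6%. The 40 hosts carry 54 snoRNA genes, 51 of them on the host's strand. The hosts include ribosomal protein genes (rps-13, rps-29, rpl-7A, rpl-24.1), the snoRNP protein gene nol-56, the elongation factor gene eef-1G, the spliceosome core gene prp-8, the heat shock cognate gene hsp-1 and the translationally controlled tumour protein gene tct-1. No test is given for these shares, since the rule used the counts that such genes can set.

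Pseudogenes were more frequent too. Of the 250 genes, 30 (12%) are annotated as pseudogenes, against 10 (0.5%) of the others. The deposited coding width equalled the annotated coding length in 85 genes (34.0%), against 1160 (60.1%) of the others, and in 37 genes (14.8%) the annotated introns were shorter than 0.5 of the deposited intron width, against 34 (1.8%). An exon of an opposite-strand coding gene lay in an intron of 22 genes (8.8%), against 230 of the others (11.9%). Only 42 genes (16.8%) showed none of these features, against 927 (48.0%). This last set was led by mps-2 with a ratio of 1.52, the kinesin gene klp-6 with 1.38 and Y42A5A.3 with 1.36, and it includes the non-muscle myosin gene nmy-2 with 0.522 and the lipid droplet gene plin-1 with 0.474.

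**Figure D1:**
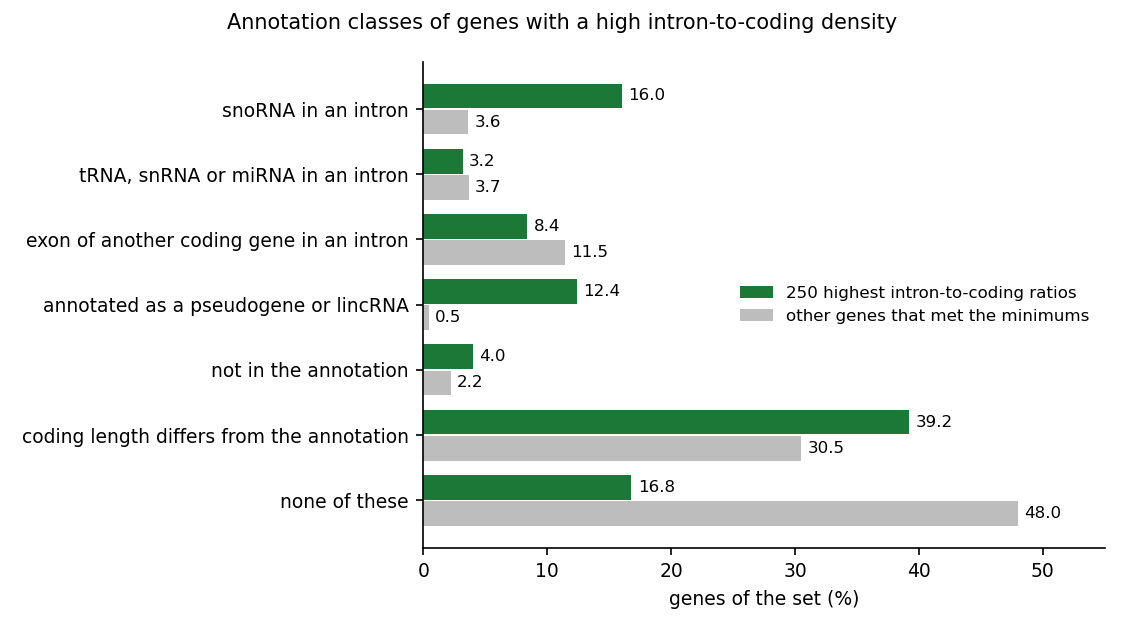
Share of genes (%) in each of 7 exclusive annotation classes, for the 250 genes with the highest intron-to-coding ratio in mock (green) and for the other 1930 genes that met the minimums (grey). A snoRNA gene in an intron was found in 16% against 3.6%, and none of the features in 16.8% against 48.0%.

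The introns of the 250 genes were short. The median deposited intron width was 1158 bases, against 4129.5 bases in the others, and the coding width was 1414.5 against 1779 bases. Per kilobase and summed over the 4 mock libraries, they had a median of 447 intron counts against 61.7 and of 1133 coding counts against 4186. Both parts of the ratio thus differed. The rule itself used both widths and both kinds of count, so these medians are a description and not a finding. Chromosome II held 24.0% of the 250 genes and 14.2% of the others.

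Of the gene families counted, the F-box genes contributed 5 of their 8 members that met the minimums and the MATH and BATH genes 3 of 5. Ribosomal protein genes contributed 4 of 18, nuclear hormone receptors 2 of 29 and splicing factors 1 of 19. UDP-glucuronosyltransferases contributed 1 of 8, ugt-66. None came from the nonsense-mediated decay genes (0 of 4), the C-type lectins (0 of 6), the cuticle collagens (0 of 1) or the vitellogenins (0 of 1). Over all genes that met the minimums, 250 of 2180 were taken, so an absence from so small a family is not read as a result.

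Levels are given as counts, or as CPM scaled by TMM within each kind of count. An intron CPM is thus relative to the library's tested intron counts times its TMM factor, which ran from 0.734 to 1.36. Percentages of intron counts are not scaled this way, so they can differ from CPM. Changes are log2 values, SE is their standard error, and p is from edgeR's quasi-likelihood test with Benjamini-Hochberg adjustment over all genes tested, called below 0.05. All 250 genes passed the filter on low counts for both kinds of count.

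Library totals ranged from 26127079 to 30093967 coding counts and from 464385 to 684124 intron counts. The targeted gene was higher, not lower, in the libraries labelled rege-1 RNAi: rege-1 coding counts were 1950 and 1891 under RNAi against 495 and 480 under mock in glp-1, and 2664 and 2137 against 396 and 354 in N2. Its intron counts were 240 and 296 under RNAi against 40 and 25 under mock in glp-1, and 4166 and 3265 against 15 and 15 in N2. Reads from the fed double-stranded RNA, if any, would be counted there too, and this was not tested. With a mock intron sum of 95 it fell just short of the minimum and is not among the 250. The libraries labelled glp-1 were not without germline RNA: the 30 germline genes on a marker list summed to 3719 to 3777 CPM in glp-1 mock against 4878 to 5161 CPM in N2 mock, and 0 of the 30 were at 0.

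In the introns of these genes, the 2 libraries within glp-1 RNAi differed widely from each other, as did the 2 within N2 mock. The 40 snoRNA hosts took 49.5 and 26.8% of the intron counts in glp-1 RNAi, 47 and 44.8% in glp-1 mock, 51.3 and 47.8% in N2 RNAi, and 34.5 and 57.2% in N2 mock. Replicate 2 of glp-1 RNAi was the lowest library for 33 of the 40 hosts and replicate 2 of N2 mock the highest for 32 of 40. The summed coding level of the same hosts did not split this way: it was 15113 and 14667 CPM in glp-1 RNAi and 18109 and 17512 CPM in N2 mock.

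The ribosomal protein gene rps-13 shows the split in introns. Its intron counts were 13660 and 3079 in glp-1 RNAi, 16786 and 12587 in glp-1 mock, 17376 and 13160 in N2 RNAi, and 4966 and 21282 in N2 mock. Its coding counts were 6650 and 4112 in glp-1 RNAi, 6554 and 6076 in glp-1 mock, 6658 and 5448 in N2 RNAi, and 4837 and 6081 in N2 mock. Within glp-1 RNAi and within N2 mock, the coding counts of this gene lay in the same order as its intron counts, with a smaller range. The intron range within N2 mock and within glp-1 RNAi was wider than any difference between groups. At frm-7 the intron counts were 52911 and 15588 in glp-1 RNAi and 19269 and 67485 in N2 mock, again with 1 library of each group far below its partner.

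Another 19 genes have introns that span an exon of an opposite-strand coding gene, and hold no snoRNA gene and no exon of a coding gene of their own strand. Exons here include untranslated parts. These 19 genes split the other way. Their summed intron level was 21095 and 46953 CPM in glp-1 RNAi, 13764 and 15177 CPM in glp-1 mock, 12754 and 11359 CPM in N2 RNAi, and 29760 and 10477 CPM in N2 mock. Replicate 2 of glp-1 RNAi was highest for 16 of the 19. Intron counts of a host were also set against the coding counts of the opposite-strand gene, for the 22 pairs, of 18 hosts, whose second gene is in the coding table; these include the snoRNA host phm-2 and leave out, among others, the hosts Y51H4A.25 and mks-5. Of the 22 pairs, 18 had their highest percentage in the same library. For lron-14 and col-122 the intron counts were 5.71 and 18.5% of the col-122 coding counts in glp-1 RNAi, 4.05 and 4.36% in glp-1 mock, 3.50 and 3.35% in N2 RNAi, and 10.5 and 2.34% in N2 mock. For qns-1 and the collagen gene col-124 the percentages were 1.03 and 2.36, 0.934 and 0.911, 0.961 and 0.924, and 1.56 and 0.858 in the same groups and order. Strand use in counting is not given in the sources used here, and the part of such reads in any change below was not tested.

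In 5 pairs the neighbour lies on the same strand. The percentage ran from 1.71 to 16.2% over the libraries for cest-8 and cest-9.2 and from 11.8 to 44.6% for F40G9.15 and F40G9.5. The intron counts of Y39A1A.21 were between 117 and 121% of the coding counts of Y39A1A.22, whose exons cover 3329 bases of its introns, in all 8 libraries. For such a gene intron counts and the neighbour's coding counts cannot be told apart.

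**Figure D2:**
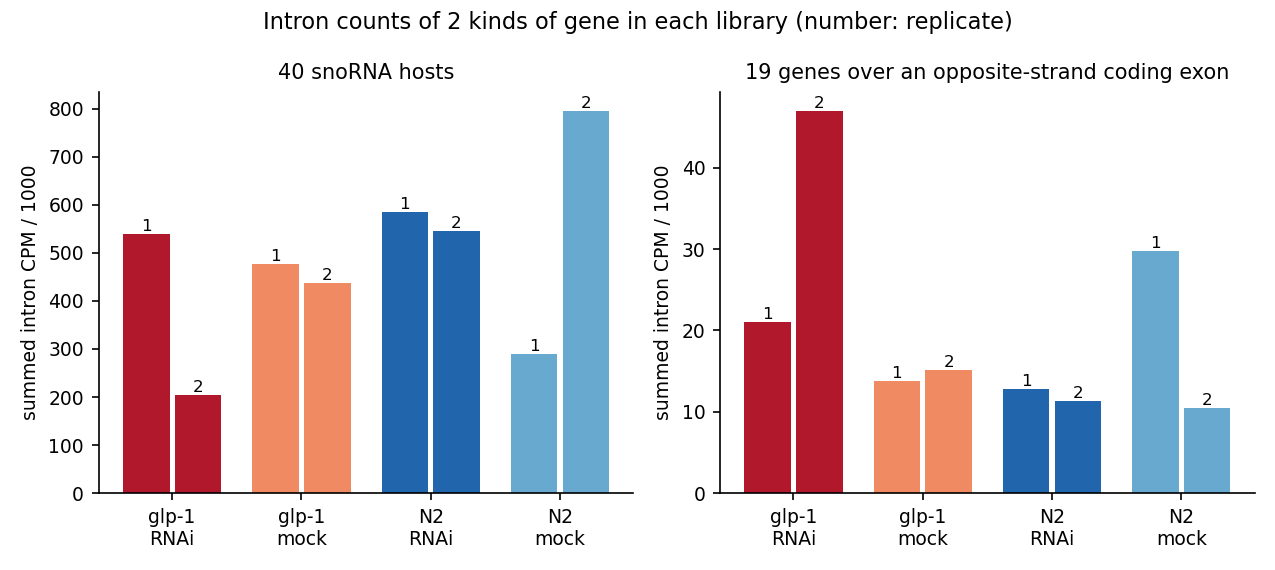
Summed intron level (CPM / 1000, scaled by TMM) of the 40 snoRNA hosts (left) and of the 19 genes over an exon of an opposite-strand coding gene (right) in each of the 8 libraries. The number over a bar is the replicate. Replicate 2 of glp-1 RNAi and replicate 1 of N2 mock were the lowest at left and the highest at right.

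Results are therefore also given without replicate 2 of glp-1 RNAi and replicate 1 of N2 mock, called the libraries that stood apart, an alternative chosen after seeing the data. Replicate 1 of N2 mock was left out because its class sums lie on the same side as those of replicate 2 of glp-1 RNAi; which of the N2 mock libraries is the unusual one is not settled, since replicate 2 was the highest library for 105 of the 250 genes. Without replicate 2 of N2 mock alone, intron calls were 3 for RNAi in N2, 8 for RNAi in glp-1, 7 for strain under mock and 20 for strain under RNAi, and coding calls were 6, 6, 14 and 43 in the same order. With both libraries left out, those groups have 1 library, which is assumed to vary like the libraries of the other groups. For fits with libraries left out, the share of all genes called is not given here. Counts of calls from such fits are therefore not read as results about the 250.

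For rege-1 RNAi against mock, mock libraries chose the genes, so nothing is read from the counts that follow. In N2, 1 gene rose and 3 fell in intron counts, where 1.07% of all 5042 genes tested were called (0.853% higher and 0.218% lower). In coding counts 5 rose and 4 fell, where 4.79% of all 15321 genes were called (3.13% higher and 1.66% lower). In glp-1, 2 genes rose and 1 fell in intron counts beside a background of 0.694% (0.635% higher and 0.0595% lower), and 3 rose and 3 fell in coding counts beside 2.7% (1.89% higher and 0.816% lower). The median intron change of the 250 was -0.08 in N2, against -0.02 over all genes, and -0.11 in glp-1, against 0.00. The median coding change was -0.03 in N2, against -0.01 over all genes, and -0.07 in glp-1, against 0.00. Intestine markers moved with RNAi in coding counts: 7 of 17 rose and 0 fell in N2, and 6 of 17 rose and 0 fell in glp-1, none of them among the 250, and they summed to 37665 to 47142 CPM in N2 RNAi against 20041 to 32545 CPM in N2 mock and to 26352 to 30236 CPM in glp-1 RNAi against 21528 to 22448 CPM in glp-1 mock, with 0 genes at 0. Of the 6 vitellogenin genes, 0 rose and 4 fell in coding counts in each strain (median change -1.03 in N2 and -1.23 in glp-1). The intestine list shares vit-2 and vit-6 with these 6 genes, and neither was among those that fell. The part of these moves in the changes below was not tested. Each gene named next was also among the 250 highest ratios when only the mock libraries of the other strain were ranked, so its test within a strain does not rest on the libraries that would choose it there.

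ets-4, the ETS-family transcription factor gene on chromosome X from 6518883 to 6522667 (plus strand, WBcel235), ranked 86th with a mock ratio of 0.496. Its coding counts were 2068 and 2958 in N2 RNAi against 517 and 545 in N2 mock, and 2027 and 2325 in glp-1 RNAi against 654 and 596 in glp-1 mock. The groups did not overlap in either strain, and the coding change was 2.25 (SE 0.17, adjusted p = 8.56e-06, edgeR) in N2 and 1.93 (SE 0.17, adjusted p = 3.85e-05, edgeR) in glp-1.

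The intron counts of ets-4 did not follow. They were 138 and 233 in N2 RNAi against 263 and 224 in N2 mock, and 300 and 252 in glp-1 RNAi against 270 and 271 in glp-1 mock, so that the groups overlapped in both strains. Intron and coding counts fitted together, with a block per library, gave an intron change beyond the coding change of -2.69 (SE 0.28, adjusted p = 0.000327, edgeR) in N2 and of -1.76 (SE 0.28, adjusted p = 0.0742, edgeR) in glp-1, the second of which missed the threshold. In N2 this was the 1 gene of the 250 called in that model, where 0.04% of all 4999 genes were called. In glp-1 the model called 0 of the 250 (17 at an unadjusted p under 0.05, and no other tool was run on it), where 0% of all genes were called. The ratio of ets-4 in the RNAi libraries was 0.110. Its coding calls in both strains, and the N2 call of the intron change beyond coding, held with each of the 8 libraries left out in turn. The deposited coding width of ets-4 differs from its annotated coding length, and the part of this in its counts was not tested. The width also differs for F47H4.2, fbxa-188, nlp-4, pho-10, F49F1.11, C16C8.17, ugt-66, mlt-11 and mdt-26, among genes named below.

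WBGene00019208, annotated as a pseudogene on chromosome II from 1484094 to 1485764 (minus strand), fell in both kinds of count and in both strains. Its intron counts were 11 and 5 in N2 RNAi against 162 and 131 in N2 mock, and 19 and 21 in glp-1 RNAi against 132 and 100 in glp-1 mock. The coding counts of WBGene00019208 were 37 and 13 in N2 RNAi against 527 and 502 in N2 mock, and 82 and 83 in glp-1 RNAi against 429 and 359 in glp-1 mock. No library of an RNAi group reached its mock group. The intron change was -4.21 (SE 0.36, adjusted p = 2.01e-07, edgeR) in N2 and -2.39 (SE 0.32, adjusted p = 0.000179, edgeR) in glp-1, and the coding change was -4.34 (SE 0.33, adjusted p = 7.66e-06, edgeR) and -2.12 (SE 0.28, adjusted p = 0.00105, edgeR). The change differed between strains by -1.82 in introns (adjusted p = 0.735, edgeR) and -2.21 in coding counts (adjusted p = 0.193, edgeR), which did not pass the threshold. The calls within each strain held with each library left out.

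Y51H4A.25 rose in both kinds of count and in both strains. It lies on chromosome IV from 16736329 to 16743259 (plus strand), and an intron holds a miRNA gene and exon bases of a coding gene, all on the opposite strand. Its coding counts were 272 and 322 in N2 RNAi against 114 and 94 in N2 mock, a change of 1.53 (SE 0.18, adjusted p = 0.000305, edgeR), and 338 and 368 in glp-1 RNAi against 208 and 177 in glp-1 mock, a change of 1.0 (SE 0.18, adjusted p = 0.00775, edgeR). Its intron counts were 177 and 158 in N2 RNAi against 88 and 49 in N2 mock, and 192 and 257 in glp-1 RNAi against 96 and 109 in glp-1 mock, with changes of 1.29 (SE 0.28, adjusted p = 0.0181, edgeR) and 1.25 (SE 0.27, adjusted p = 0.0256, edgeR). The intron call in glp-1 was lost without replicate 2 of glp-1 RNAi (adjusted p = 0.242, edgeR) and without either glp-1 mock library (up to 0.950, edgeR), the coding call in glp-1 without either glp-1 mock library (up to 0.205, edgeR), and the intron call in N2 without any 1 of 5 libraries, with adjusted p up to 0.167 (edgeR).

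Among the other genes that fell, cest-8, a carboxylesterase-family gene, had coding counts of 75 and 56 in N2 RNAi against 260 and 180 in N2 mock, and of 98 and 176 in glp-1 RNAi against 356 and 379 in glp-1 mock. The coding change was -1.72 (SE 0.29, adjusted p = 0.00389, edgeR) in N2 and -1.30 (SE 0.27, adjusted p = 0.0234, edgeR) in glp-1. Its intron counts were 7 and 5 in N2 RNAi against 32 and 25 in N2 mock, a change of -2.25 (SE 0.50, adjusted p = 0.0237, edgeR), and 9 and 24 in glp-1 RNAi against 49 and 65 in glp-1 mock, where the test missed the threshold (adjusted p = 0.0523, edgeR). An intron of cest-8 spans 134 exon bases of the neighbouring gene cest-9.2 on the same strand. Leaving out 1 library at a time, the N2 intron call of cest-8 was lost without any 1 of 5 libraries, with adjusted p up to 0.185 (edgeR), the N2 coding call without replicate 1 of N2 mock or replicate 2 of N2 RNAi, up to 0.0690 (edgeR), and the glp-1 coding call without any 1 of 4, up to 0.180 (edgeR).

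F47H4.2 had coding counts of 67 and 68 in N2 RNAi against 160 and 111 in N2 mock, and of 66 and 84 in glp-1 RNAi against 156 and 169 in glp-1 mock. The coding change was -0.98 in N2 (adjusted p = 0.0276, edgeR) and -0.99 in glp-1 (adjusted p = 0.0360, edgeR), the second lost without any 1 of 5 libraries. The intron change in N2 was -1.28 (adjusted p = 0.0272, edgeR), from 42 and 31 counts under RNAi against 98 and 77 under mock. The N2 intron call was lost without any 1 of 6 libraries, with adjusted p up to 0.256 (edgeR), and the N2 coding call without any 1 of 5, up to 0.224 (edgeR).

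The further calls were of coding or intron counts alone. W01C8.5 rose in coding counts, with 1593 and 1440 in N2 RNAi against 762 and 635 in N2 mock and 2014 and 1687 in glp-1 RNAi against 1192 and 1126 in glp-1 mock, changes of 1.14 (adjusted p = 0.000339, edgeR) and 0.80 (adjusted p = 0.00649, edgeR), the second lost without either of 2 libraries (up to 0.117, edgeR). The F-box gene fbxa-188 rose in N2 by 1.10 (adjusted p = 0.0234, edgeR; 91 and 81 coding counts under RNAi against 38 and 43), and the call was lost without any 1 of 6 libraries, with adjusted p up to 0.195 (edgeR). Y38F2AR.12 fell in N2 by 0.46 (adjusted p = 0.0441, edgeR; 1252 and 1293 against 1957 and 1597 coding counts), and this call too was lost without any 1 of 6 libraries. WBGene00015274, named here as the fifth coding gene higher in N2 and outside the naming rule, changed by 0.52 (adjusted p = 0.0348, edgeR), also lost without any 1 of 6 libraries. In glp-1 the kinesin gene klp-6 rose in introns, with 55 and 113 counts under RNAi against 31 and 19 under mock, a change of 1.87 (SE 0.41, adjusted p = 0.0383, edgeR) that was not called without replicate 2 of glp-1 RNAi (adjusted p = 0.390, edgeR) or without either glp-1 mock library.

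**Figure D3:**
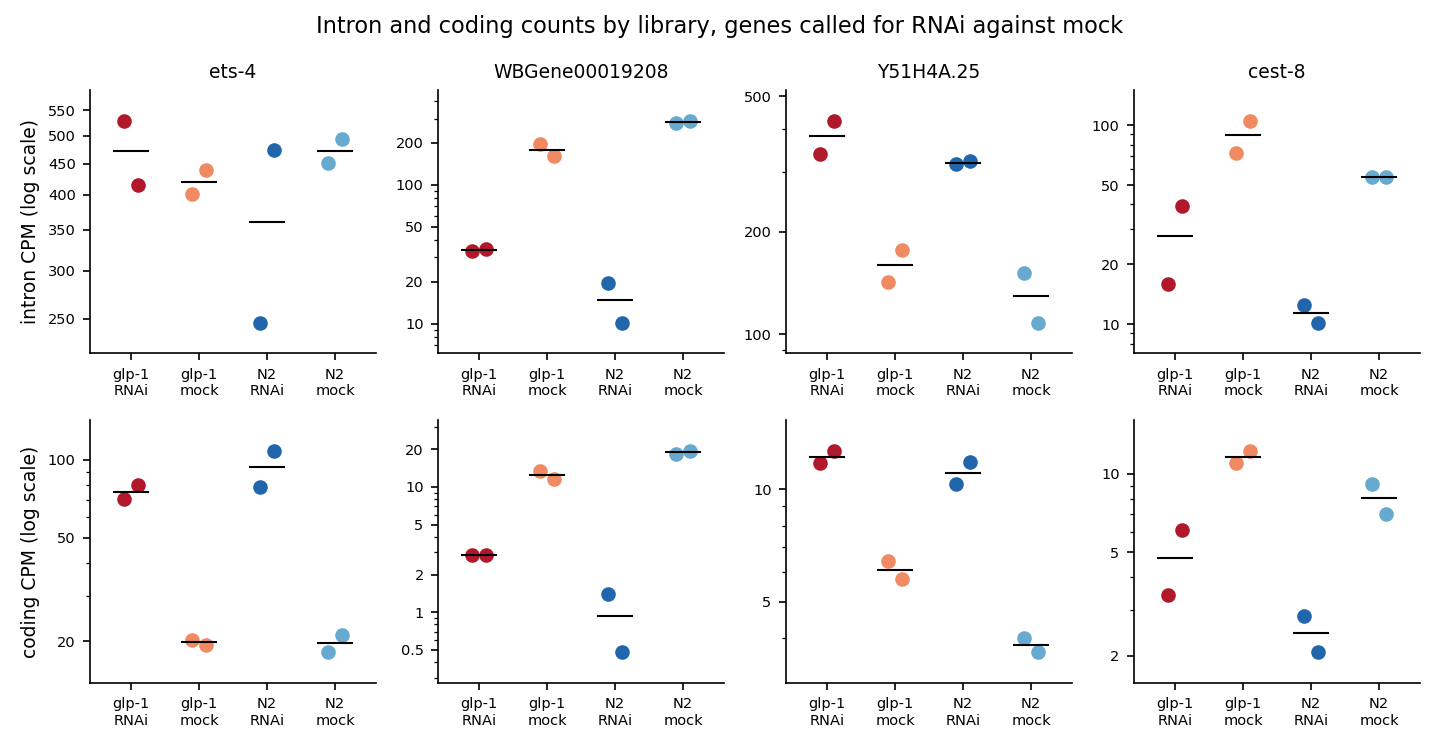
Intron CPM (top) and coding CPM (bottom), on log axes, of ets-4, WBGene00019208, Y51H4A.25 and cest-8 in the 8 libraries; points are libraries and lines are means of n = 2. The coding level of ets-4 is higher under RNAi in both strains while its intron level overlaps, and WBGene00019208 is lower under RNAi in both rows.

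The difference of the RNAi change between strains called 0 of the 250 genes for intron counts (22 at an unadjusted p under 0.05 and 0 by DESeq2), where 0.0198% of all genes were called, and 0 for coding counts (8 at an unadjusted p under 0.05 and 1 by DESeq2), where 0.0261% were called. Without replicate 2 of glp-1 RNAi, 34 of the 250 fell and 3 rose in coding counts for RNAi in glp-1. Without both libraries that stood apart, 43 fell and 3 rose, the 6 genes called with all libraries among them. The number of calls in glp-1 thus depended on 1 library. Whether calls over all genes moved alike is not given here, so no fall particular to the 250 is read from this.

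For glp-1 against N2 under rege-1 RNAi the libraries are not those the rule used, but mock libraries of the same strains chose the genes. In intron counts 9 of the 250 genes rose and 3 fell (4.8%), where 0.516% of all genes were called (0.417% higher and 0.0992% lower). In coding counts 23 rose and 22 fell (18%), where 18.1% of all genes were called (10.6% higher and 7.54% lower), so that the coding share was that of the background. Of the 12 intron calls, 7 were of genes that were among the 250 when the strain in which they are higher was ranked alone and not when the other strain was, so the intron share is not read as a result about the 250. All 250 genes have at least 100 mock intron counts, while the genes tested for introns include some with fewer. The median change of the 250 was -0.18 in introns, against 0.01 over all genes, and -0.07 in coding counts, against 0.02. Without replicate 2 of glp-1 RNAi, 6 of the 12 intron calls remained and no gene was added. Without both libraries that stood apart, 12 rose and 9 fell in introns, 8 of the first 12 among them, and 24 rose and 60 fell in coding counts, 37 of the first 45 among them.

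Under mock, where all libraries had been used to choose the genes, 6 genes were called higher and 1 lower in introns beside a background of 0.417% (0.317% higher and 0.0992% lower), and 14 higher and 7 lower in coding counts beside 9.73% (6.49% higher and 3.24% lower). Without the libraries that stood apart, 26 genes were lower in introns under mock, and 18 of these were snoRNA hosts. Nothing is read from these counts.

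nlp-4, a neuropeptide-like protein gene on chromosome I from 10517321 to 10518055 (minus strand, WBcel235), showed the largest intron change of the 250. Its intron counts were 358 and 296 in glp-1 RNAi against 8 and 6 in N2 RNAi, and 342 and 312 in glp-1 mock against 15 and 11 in N2 mock. No glp-1 library came near an N2 library. The intron change was 5.37 (SE 0.35, adjusted p = 2.97e-09, edgeR) under RNAi. Its coding counts were 51 and 49 in glp-1 RNAi against 23 and 37 in N2 RNAi, a change of 0.63 that missed the threshold (adjusted p = 0.165, edgeR). Its intron change beyond the coding change was 4.73 (SE 0.43, adjusted p = 6.28e-05, edgeR), the 1 call among the 250 in that model, where 0.06% of all genes were called. The deposited intron width of nlp-4 is 958 bases, against 96 bases of introns in the annotation used here. It also exceeds the length of the whole annotated gene, so part of the counted bases lies outside that gene. The intron counts of nlp-4, here and in the figures, are thus not counts of its annotated introns alone.

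Intron and coding counts rose together in 5 genes. pho-10, an acid phosphatase-family gene on chromosome II from 9918125 to 9920568 (minus strand), had intron counts of 158 and 78 in glp-1 RNAi against 9 and 9 in N2 RNAi, a change of 3.55 (SE 0.41, adjusted p = 3.33e-05, edgeR). Coding counts of pho-10 were 515 and 416 in glp-1 RNAi against 61 and 64 in N2 RNAi, a change of 2.79 (SE 0.21, adjusted p = 1.28e-05, edgeR). F49F1.11, on chromosome IV, had intron counts of 269 and 158 in glp-1 RNAi against 27 and 28 in N2 RNAi, and coding counts of 39 and 35 against 1 and 4, changes of 2.80 (adjusted p = 3.98e-05, edgeR) and 3.72 (adjusted p = 0.00476, edgeR). Both genes were higher in every glp-1 library.

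C16C8.17 rose by 2.65 in introns (adjusted p = 0.00186, edgeR; 56 and 65 counts in glp-1 RNAi against 8 and 9 in N2 RNAi) and by 2.43 in coding counts (adjusted p = 0.000121, edgeR). K09H9.7 rose by 1.93 in introns (adjusted p = 0.00363, edgeR; 335 and 228 against 89 and 46) and by 2.05 in coding counts (adjusted p = 0.000201, edgeR; 454 and 414 against 106 and 89). The annotated pseudogene WBGene00020439 rose by 2.25 in coding counts (adjusted p = 3.31e-05, edgeR) and by 1.78 in introns (adjusted p = 0.0460, edgeR), the second lost without any 1 of 6 libraries, with adjusted p up to 0.353 (edgeR), and without replicate 2 of glp-1 RNAi the change was 1.65 (adjusted p = 0.280, edgeR). The UDP-glucuronosyltransferase gene ugt-66 rose in coding counts by 1.91 (adjusted p = 0.000159, edgeR; 513 and 612 against 166 and 111), while its intron change of 1.48 missed the threshold (adjusted p = 0.0537, edgeR).

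The intron calls of nlp-4, pho-10, F49F1.11 and WBGene00018416 held with each library left out, and those of C16C8.17 and K09H9.7 were lost without 1 and without either of 2 libraries, with adjusted p up to 0.0625 and 0.114 (edgeR). Several of these genes were chosen through 1 strain. nlp-4, pho-10, F49F1.11 and C16C8.17 were among the 250 highest ratios when glp-1 mock was ranked alone and not when N2 mock was, so their higher intron counts in glp-1 had a part in choosing them. K09H9.7, ugt-66, daf-10, prx-2 and nphp-4 were among the 250 in either strain, and WBGene00020439 in neither alone.

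The other 3 intron calls on the higher side were daf-10, an intraflagellar transport gene, prx-2, a peroxisome assembly gene, and nphp-4, a gene of the ciliary transition zone. The intron counts of daf-10 were 71 and 175 in glp-1 RNAi against 24 and 25 in N2 RNAi, a change of 2.14 (SE 0.40, adjusted p = 0.0215, edgeR), and its coding counts were 36 and 82 against 59 and 59. prx-2 changed by 1.55 (adjusted p = 0.0328, edgeR; 96 and 191 against 37 and 49 intron counts) and nphp-4 by 1.61 (adjusted p = 0.0447, edgeR; 108 and 248 against 50 and 53). All 3 have an exon of an opposite-strand coding gene in an intron and were highest in replicate 2 of glp-1 RNAi. Without that library the changes were 1.39, 1.01 and 0.93 and none was called (adjusted p = 0.277, 0.398 and 0.458, edgeR). The calls were also lost without either N2 RNAi library and, for prx-2 and nphp-4, without either glp-1 mock library. Without both libraries that stood apart daf-10 was called (1.40, adjusted p = 0.0474, edgeR) and the other 2 genes were not. They were named after their values were seen.

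Of the 3 genes lower in introns, WBGene00018416, which is not in the annotation used here, had 20 and 15 counts in glp-1 RNAi against 88 and 86 in N2 RNAi, and 18 and 23 in glp-1 mock against 99 and 106 in N2 mock. These groups did not overlap. The change under RNAi was -2.47 (SE 0.34, adjusted p = 0.000345, edgeR), and its coding counts also fell, by 0.76 on the log2 scale (adjusted p = 0.00849, edgeR; 7629 and 8500 against 11586 and 13844). The molting gene mlt-11 had intron counts of 39 and 23 in glp-1 RNAi against 78 and 114 in N2 RNAi, a change of -1.80 (SE 0.34, adjusted p = 0.0138, edgeR) that was lost without replicate 2 of glp-1 RNAi (-1.45, adjusted p = 0.238, edgeR) or without replicate 2 of N2 RNAi (adjusted p = 0.202, edgeR), and called without both libraries that stood apart (-1.44, adjusted p = 0.0441, edgeR). The annotated pseudogene WBGene00010295 changed by -1.83 in introns (adjusted p = 0.0447, edgeR; 10 and 12 against 33 and 37), a call lost in 9 of 15 alternatives. All 3 genes were among the 250 when N2 mock was ranked alone and not when glp-1 mock was.

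**Figure D4:**
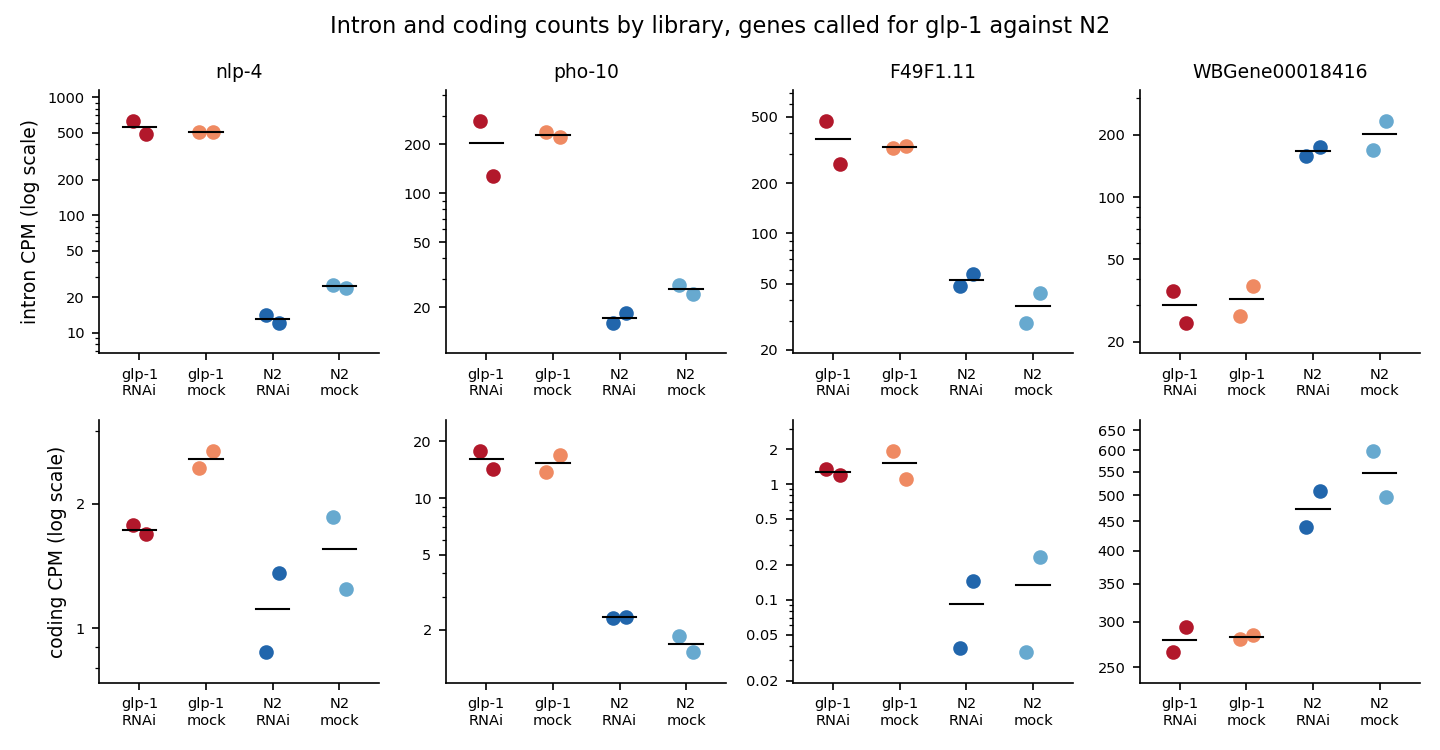
Intron CPM (top) and coding CPM (bottom), on log axes, of nlp-4, pho-10, F49F1.11 and WBGene00018416 in the 8 libraries; points are libraries and lines are means of n = 2. The intron level of nlp-4 is higher in every glp-1 library while its coding level differs much less, pho-10 and F49F1.11 are higher in glp-1 in both rows, and WBGene00018416 is lower in both.

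Among the snoRNA hosts the calls were of coding counts. In coding counts under RNAi, 2 of the 40 rose and 9 fell, where 10.6% of all genes were higher and 7.54% lower, while no snoRNA host was among the 12 genes called in introns by edgeR. Their median intron change was -0.62, with the 2 libraries that stood apart included. The splicing gene prp-8 had 15637 and 22256 coding counts in glp-1 RNAi against 29053 and 34159 in N2 RNAi, a change of -0.84 (SE 0.18, adjusted p = 0.0106, edgeR). The AAA ATPase gene cdc-48.1 had 15704 and 15063 against 21253 and 23090, a change of -0.63 (SE 0.13, adjusted p = 0.0115, edgeR). nol-56 changed by -0.53 (adjusted p = 0.0240, edgeR), the germline-enriched RNA helicase gene cgh-1 by -0.70 (adjusted p = 0.0152, edgeR) and hsp-1 by -0.55 (adjusted p = 0.0360, edgeR). On the higher side tct-1 had 57981 and 50472 coding counts in glp-1 RNAi against 33258 and 34158 in N2 RNAi, a change of 0.58 (adjusted p = 0.0297, edgeR). The calls of prp-8, cdc-48.1 and cgh-1 were lost without 1 of the 8 libraries, those of nol-56, tct-1 and hsp-1 without any 1 of 4, 5 and 6, with adjusted p up to 0.201 (edgeR).

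The 4 ribosomal protein genes among the 250 were called in no contrast. Over all 76 ribosomal protein genes tested in coding counts, 1 rose and 0 fell between strains under RNAi, and of 44 splicing factors 0 rose and 5 fell, prp-8 among them, beside the same 10.6% higher and 7.54% lower over all genes. The Mediator subunit gene mdt-26, which hosts no snoRNA gene, fell by 0.61 in coding counts (adjusted p = 0.00770, edgeR; 2013 and 2162 against 2865 and 3046).

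Marker lists moved with strain too. The 30 germline genes summed to 3841 to 4002 CPM in glp-1 RNAi against 4997 to 5524 CPM in N2 RNAi, and the 21 oocyte and eggshell genes to 7869 to 8127 CPM against 9993 to 10543 CPM, with 0 genes of either list at 0. Of the 55 sperm genes, the 31 that passed the filter on low counts summed to 341 to 388 CPM in glp-1 RNAi against 182 to 263 CPM in N2 RNAi. Of all 55, 12 and 14 were at 0 in these groups. The 17 intestine markers summed to 26352 to 30236 CPM in glp-1 RNAi against 37665 to 47142 CPM in N2 RNAi. The 16 hypodermis markers summed to 9648 to 10860 CPM against 6444 to 8479 CPM. Both lists had 0 genes at 0 and no overlap between the groups. These sums do not describe the typical gene of either list. Of the intestine markers 1 was called higher and 1 lower (median coding change -0.05), and of the hypodermis markers 0 were called higher and 3 lower (median -0.62). The 20 muscle markers summed to 6236 to 6772 CPM against 6471 to 8355 CPM. The 22 neuron markers summed to 534 to 602 CPM against 492 to 572 CPM. The groups overlapped in both sums, but single genes of both lists were called. Among the neuron markers 5 were called higher and 0 lower (median coding change 0.28). Among the muscle markers 4 were called higher and 2 lower (median -0.09). Over all genes tested, 10.6% were called higher and 7.54% lower. The part of these cell types in the strain differences was not tested.

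**Figure D5:**
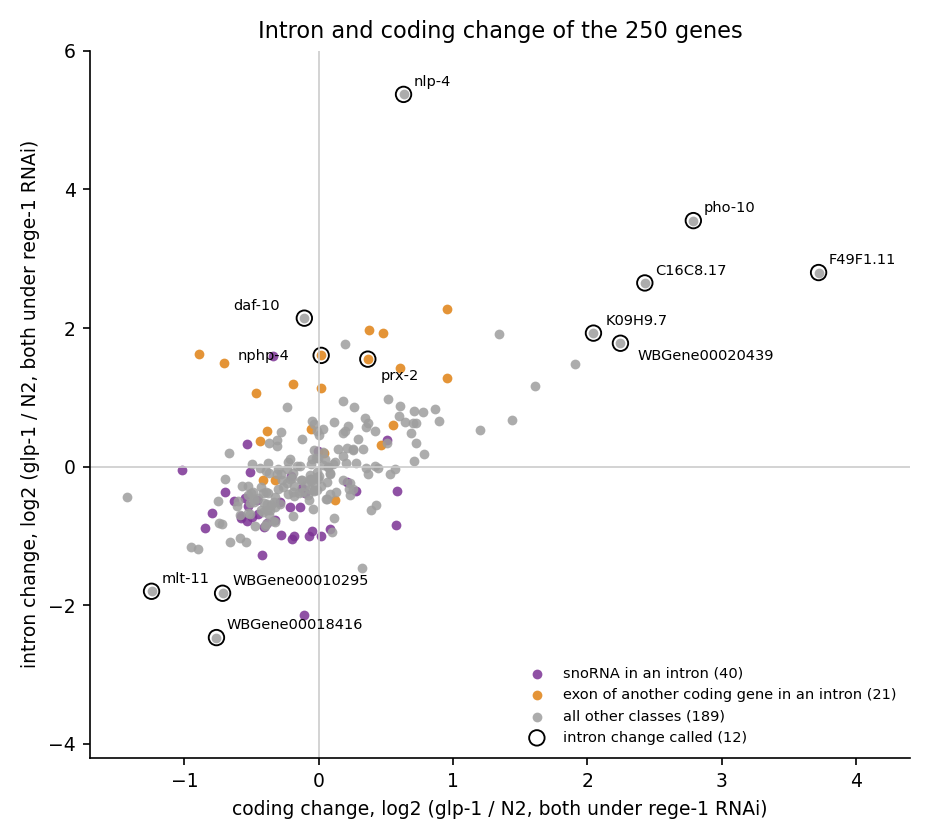
Intron change against coding change (log2, glp-1 over N2, both under rege-1 RNAi) of the 250 genes, 1 point per gene; purple points are the 40 snoRNA hosts, orange points the 21 genes with an exon of another coding gene in an intron, and circles the 12 called intron changes. nlp-4 stands at an intron change of 5.37 with a coding change of 0.63, and most orange points lie above 0 on the intron axis.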

How the data were processed

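Total RNA of 8 libraries of young adult worms, 2 for each of 4 groups, was sequenced by the study's authors. They deposited raw counts per gene over coding sequence and over introns, with the width of each; no source used here names the aligner, genome build, annotation, counting tool or use of strand. For 13551 of 13758 genes whose deposited coding width equals the annotated one, the deposited intron width equals the annotated introns less 20 bases per intron. Features were taken from the Ensembl gene annotation of WBcel235.

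The members and gene lists were chosen with earlier results of these data known. Counts were tested with edgeR 4.0.16 (R 4.3.3, limma 3.58.1), using TMM scaling, a filter with a minimum count of 10 and 4 groups in 1 quasi-likelihood model for each kind of count. This left 5042 genes for introns, 15321 for coding counts and 4999 for the model of both, in which the library was a block and the interaction gave the intron change beyond the coding change. Standard errors are the log2 change divided by the square root of F, and adjusted p was called below 0.05. Named genes were the 10 highest ratios, the 3 genes at each side of the limit, up to 4 called genes per direction and contrast with the lowest p and groups that do not overlap (3 for the model of both), rege-1 and ets-4; other named genes were chosen as examples after their values were seen. Alternatives were other size factors, no filter, DESeq2 1.42.0, a replicate block, the compared groups alone, each library left out, and other rules for choosing the members. No sequence is printed, since no genome was used here.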

Additional observations from a re-analysis of the deposited data

How the results depend on the processing

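The counts below are of the 250 genes called, by edgeR unless another tool is named. The share of all genes called under each alternative is not given, so these counts are not read as results about the 250. For RNAi in N2, intron calls were 4, and 2 with library size alone, 2 by DESeq2 and 1 with only the compared groups fitted. For RNAi in glp-1, intron calls were 3, and 11 without the filter, 8 with only the compared groups and 6 without the 2 libraries that stood apart; coding calls were 6, and 46 without those 2. For strain under mock, intron calls were 7, and 4 with library size alone, 4 by DESeq2 and 32 without the 2 libraries; coding calls were 21, and 38 with only the compared groups and 13 with minimum sums of 200. For strain under RNAi, intron calls were 12, and 23 without the filter, 21 without the 2 libraries and 7 with minimum sums of 200; coding calls were 45, and 11 with only the compared groups and 84 without the 2 libraries. The difference between strains called 0 in introns and 8 without the filter, and 0 in coding counts, 1 by DESeq2 and 19 without the 2 libraries. The intron change beyond coding called 0 for RNAi in glp-1 and 1 without the filter, and 1 for strain under RNAi, 6 without the filter and 5 without the 2 libraries. The cause of these moves was not tested.

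Leaving out each library in turn gave intron calls of 1 to 4 for RNAi in N2, 1 to 8 for RNAi in glp-1, 4 to 7 for strain under mock, 5 to 21 for strain under RNAi and 0 to 6 for the difference between strains. Coding calls ranged over 4 to 11, 2 to 37, 8 to 32, 8 to 67 and 0 to 9 in the same order, and calls beyond coding over 1 to 1 for RNAi in N2, 0 to 0 for RNAi in glp-1 and 1 to 4 for strain under RNAi.

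Same-numbered libraries were not treated as pairs. Their deviations correlated between -0.09 and 0.25 in introns and between -0.11 and 0.17 in coding counts. Both highest values were between N2 mock and N2 RNAi. With 2 libraries per group these values cannot settle whether the samples were paired. With the replicate block, intron calls for RNAi in glp-1 were 5 in place of 3, and the other counts stayed within 1.5 times. Library size alone moved the median intron change of all genes to 0.36 for strain under RNAi, 0.15 for RNAi in glp-1 and -0.14 for RNAi in N2; coding calls then split into 32 higher and 13 lower for strain under RNAi (23 and 22 with TMM) and 19 and 3 under mock (14 and 7). When the genes were ranked on the mock libraries of the other strain alone, intron and coding calls were 4 and 10 for RNAi in N2 and 3 and 6 for RNAi in glp-1. The share of snoRNA hosts was 30.0% in the highest 100 and 9.6% in the highest 500, the share of pseudogenes 7.4% in the highest 500, and the share with an equal coding width 41% in the highest 100 and 42.4% in the highest 500. Of 761 alternatives of 51 single results, 650 kept the call, 111 lost it and 0 reversed. Intervals rest on 2 libraries per group, and genes with under 100 counts of either kind were not ranked.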

Other observations

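cox-5B is a cytochrome c oxidase subunit gene. No snoRNA, snRNA, tRNA or miRNA gene and no exon of another coding gene was found in its intron, and other kinds of annotated gene are not given here. Its intron counts varied between libraries much as those of the snoRNA hosts did. They were 2184 and 498 in glp-1 RNAi, 2968 and 2593 in glp-1 mock, 4151 and 2686 in N2 RNAi, and 735 and 5563 in N2 mock, and its ratio was 0.430. Its coding counts were 10372 and 7751 in glp-1 RNAi, 10815 and 10067 in glp-1 mock, 7211 and 6250 in N2 RNAi, and 6446 and 7505 in N2 mock. It was picked out after its values were seen, and no test is given.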
